A study of Mus musculus with 8 samples.

Results

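The voltage-gated sodium channel subunits described here are 7 of the 17500 genes in the deposited table, 4 alpha subunits (Scn1a, Scn3a, Scn8a and Scn9a) and 3 beta subunits (Scn2b, Scn3b and Scn4b). They were chosen by name as neuronal sodium channel genes that belong to families known to be regulated by Rbfox proteins. The rule uses no measured value, but the choice was made with earlier results of these data known. Presence in the table was part of the rule, and all 7 passed the filter on low counts. A further 4 subunit genes of the table are given after the 7.

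Retinal RNA of 8 mice, 4 labelled Rbfox2 KD (M893, M901, M902 and M909) and 4 labelled control (M833, M894, M896 and M898), was analysed as 1 poly(A)-selected whole-retina library per mouse. All mice were 6 months old and on the C57BL/6J strain background. The Rbfox2 KD mice carried floxed Rbfox2 on both alleles and a Cre recombinase that tamoxifen activates, expressed from a ubiquitous promoter, so that recombination was not limited to 1 cell type. Controls were heterozygous Rbfox2 fl/+ mice of matched age, which therefore shared 1 floxed allele with the KD mice. The labels give tamoxifen and an interval of 4 months for every mouse, while the study's methods describe tamoxifen for the homozygous mice and corn oil as the vehicle, and which of these the sequenced controls received is not given in the sources used here. Whether these controls carried the Cre transgene is not given there either, and the part of Cre or tamoxifen in the differences below was not tested. In whole-retina RNA, fewer cells of a type and less RNA per cell cannot be told apart.

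Voltage-gated sodium channels carry the rising phase of the action potential. The large alpha subunit forms the pore and contains 4 homologous domains, each with a voltage sensor, and the small beta subunits are single-pass membrane proteins with an extracellular immunoglobulin domain that bind the alpha subunit and change its gating, its surface level or its adhesion. In the retina these channels are known from the axon initial segment and axon of retinal ganglion cells and from some amacrine and bipolar cells. Rbfox proteins bind the sequence TGCATG, with U for T in RNA, and are best known for controlling the inclusion of exons, among them exons of Scn8a. The values below are gene totals, which add up all exon choices of a gene, so that exon use was not measured here.

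Scn8a is the member for which exon choice is best described, and an alternative exon of it is printed to show what a gene total merges. In GRCm38 (GENCODE release M21) Scn8a lies on the plus strand of chromosome 15 between 100869858 and 101045938. An exon of 123 bases (chr15:101024261-101024383) encodes part of the voltage sensor of the third domain and is exon 21 of the longest transcript. It is held by 5 annotated transcripts and skipped by 1.
Scn8a exon 21: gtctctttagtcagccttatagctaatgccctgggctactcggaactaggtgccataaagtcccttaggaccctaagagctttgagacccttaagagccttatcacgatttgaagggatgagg
A second alternative exon, of 92 bases (chr15:100959603-100959694), encodes part of the voltage sensor of the first domain and is known as the adult form. It is used by 3 annotated transcripts of Scn8a.

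The letters TGCATG were searched on the transcript strand. An exon of 1771 bases (chr15:100959695-100961465) begins right after the exon of 92 bases in Scn8a. The annotated transcript that holds it lacks the exon of 92 bases. This transcript held the letters 114, 1648 and 1658 bases beyond the end of the exon of 92 bases. In the 3 annotated transcripts that use the exon of 92 bases the stretch is intron, hence the labels below. Only annotated transcripts were searched and not whole introns, so that other introns of the members were not compared. These windows are printed because they lie beyond an alternative exon of Scn8a, with TGCATG in capitals (chr15:100959796-100959825 and chr15:100961330-100961359, plus strand).
Scn8a intron, near: cttgtctcgctcTGCATGcttccccctgag
Scn8a intron, far: ctgtagcgtgtgTGCATGcgtgTGCATGtg
In the longest coding transcript of each member, TGCATG occurred 8 times in Scn8a (3 in the coding part and 5 in the 3′ UTR), 5 times in Scn1a, 5 times in Scn3a, 2 times in Scn9a, once in Scn3b and once in Scn4b, and was not found in Scn2b. Among 21877 genes, 51.7% of the longest coding transcripts held it, and the share was 92.1% of the 785 transcripts of 8 to 12 kb and 73.8% of the 3703 of 4 to 6 kb, so that 6 of 7 members is close to what transcripts of these lengths hold. In coding sequence the members had 0.311 occurrences per kb against 0.251 over all genes, and in 3′ UTRs 0.527 against 0.358. The densities of the members rest on few occurrences in 7 transcripts, and their difference from all genes was not tested.
Scn4b, which had the largest fitted difference of the members (below), held the letters 1 time, in its 3′ UTR (chr9:45153903-45153932, plus strand).
Scn4b 3′ UTR: ttgactatcttaTGCATGgtttagtcctct
A match of 6 letters is a description and does not show that a protein binds there.

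Libraries held 160630226 to 211283591 counts, and each member had at least 1002 counts in every mouse, where counting error is at most 3.16%. Rbfox2 itself had 143.8 to 156.8 CPM (counts scaled to the TMM-normalized library size) in controls and 53.6 to 59.4 CPM in Rbfox2 KD mice, a log2 fold change of -1.41 (SE 0.046), a change of -62.3% with the 2 groups far apart. Rbfox1 and Rbfox3, the other Rbfox genes, had log2 fold changes of -0.04 (SE 0.065, adjusted p = 0.847 by edgeR) and 0.04 (SE 0.078, adjusted p = 0.875 by edgeR). The first principal component (40.5% of the variance between libraries) set M901 and M902 apart from the other 6 mice, and these libraries had 277506 and 275967 counts on Xist, the noncoding RNA of the inactive X chromosome, against 312 to 426 in the others. M901 and M902 are both Rbfox2 KD mice and no control was high in Xist, so that this difference is not balanced between the groups. Fits without M901 and M902 are among the alternatives below. The second component (19.2%) set M909 apart, which was also high in cornea and conjunctiva markers with a summed 38.4 CPM against at most 4.70 in the others.

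Control mouse M833 stood apart in markers of retinal ganglion cells, the neurons whose axons leave the eye. The 10 markers (Rbpms, Pou4f1, Pou4f2, Pou4f3, Thy1, Sncg, Slc17a6, Nefl, Nefm and Nefh) were all above 0 in every mouse. Their summed level was 805 CPM in M833 and 1247, 1275 and 1294 CPM in the controls M894, M896 and M898, against 1266, 1322, 1157 and 996 CPM in M893, M901, M902 and M909. The 8 amacrine cell markers summed to 1155 to 1255 CPM in controls and 1146 to 1211 CPM in Rbfox2 KD mice. Of these 8 markers 7 were lower in the KD, and 0 had an unadjusted p under 0.01 by edgeR. Rod markers made up most of the marker signal, with a summed 57970 to 62330 CPM in controls and 60340 to 65500 CPM in Rbfox2 KD mice. These ranges overlapped, but 0 of the 6 rod markers were lower in the KD, and 2 had an unadjusted p under 0.01 by edgeR. Summed cone markers (824 to 836 CPM against 878 to 1002 CPM) and summed Müller glia markers (5195 to 5688 CPM against 4768 to 5147 CPM) did not overlap between control and Rbfox2 KD mice, the former being higher and the latter lower in the KD. Single markers did not all follow their sum. Of the 5 Müller glia markers 3 were lower in the KD, and of the 6 cone markers 1 was lower. In each of these lists 1 marker had an unadjusted p under 0.01 by edgeR. The main differences that moved with M833 are given with and without it, and the part of the ganglion cell markers in the results was tested only by the covariate fit below. The part of the other marker lists was not tested.

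Across all 16797 genes tested with edgeR's quasi-likelihood test and Benjamini-Hochberg adjustment, 0.0655% had an FDR under 0.05, 3.88% an unadjusted p under 0.01 (1.94% higher and 1.93% lower in Rbfox2 KD) and 13.3% an unadjusted p under 0.05, and in 7.03% the CPM of the 2 groups did not overlap. None of the 7 subunits had an FDR under 0.05. By unadjusted p, 1 of 7 (Scn3a, higher) was under 0.01 and 2 of 7 (Scn3a and Scn1a, lower) under 0.05, and in 1 of 7 (Scn3a) the groups did not overlap. Of the 7 log2 fold changes 3 were above 0 and 4 were below it, with Scn8a at 0.00 to 2 decimals and a range from -0.47 to 0.17. The median absolute log2 fold change of the 7 was 0.16 against 0.07 over all genes tested. Counts this small do not set the members apart from the background shares.

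**Figure D1:**
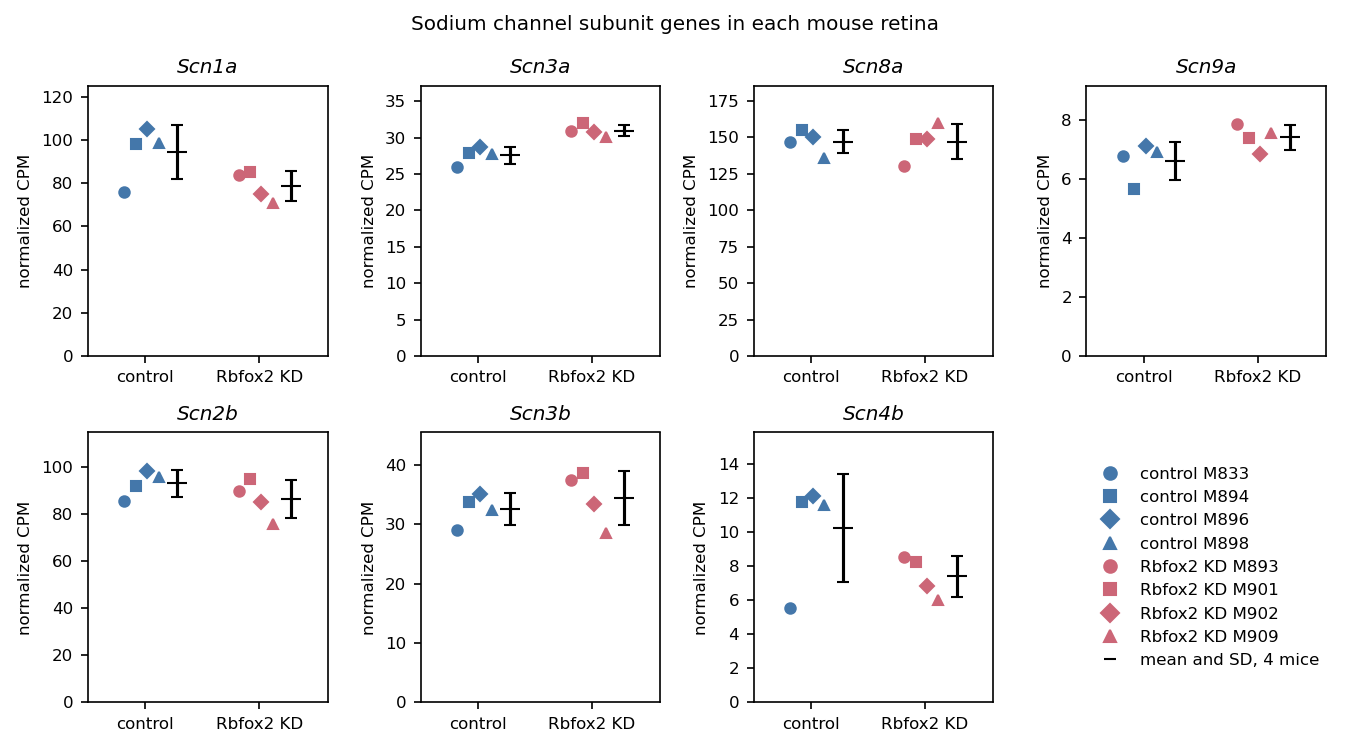
Level of each of the 7 subunit genes (y axis, normalized CPM from 0) in each mouse (1 symbol per mouse, blue control, red Rbfox2 KD), with the mean and SD of 4 mice per group in black. Scn3a is the only gene whose groups do not overlap, and control M833 is the lowest of all 8 mice for Scn4b, with 5.52 CPM.

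Scn1a encodes Nav1.1, a channel of axon initial segments known from inhibitory neurons and retinal ganglion cells. It had 76.1, 97.9, 105 and 98.4 CPM in control mice (M833, M894, M896, M898) and 83.9, 85.3, 74.97 and 71.0 CPM in M893, M901, M902 and M909. Apart from M833, all controls lay above every Rbfox2 KD mouse, while M833 lay within the KD range. The log2 fold change was -0.26 (SE 0.096, unadjusted p = 0.0225, adjusted p = 0.307 by edgeR), with a 95% interval from -0.47 to -0.04. Without M833 it was -0.35 (SE 0.066, unadjusted p = 0.000447, adjusted p = 0.0754 by edgeR).

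Scn3a encodes Nav1.3, the alpha subunit that is most abundant before birth in rodent brain. It had 25.9, 27.9, 28.7 and 27.7 CPM in control mice (M833, M894, M896, M898) and 31.0, 32.0, 30.8 and 30.1 CPM in M893, M901, M902 and M909. All 4 Rbfox2 KD mice were above all 4 controls (two-sided exact permutation test, p = 0.0286, which is the lowest value possible with 4 mice per group). The log2 fold change was 0.17 (SE 0.043, unadjusted p = 0.00293, adjusted p = 0.192 by edgeR), a level 12.3% higher with a 95% interval from 5.14 to 20.1% higher. DESeq2, which called 3.07% of the 15137 genes to which it gave an adjusted p, also called Scn3a (log2 fold change 0.17, adjusted p = 0.0263), and no other alternative called Scn3a. With M901 and M902 left out the log2 fold change was 0.14 (adjusted p = 0.788 by edgeR).

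Scn8a encodes Nav1.6, the main channel of the mature axon initial segment and node of Ranvier. It had 147, 155, 150.3 and 136 CPM in control mice (M833, M894, M896, M898) and 130.4, 149, 149 and 159.7 CPM in M893, M901, M902 and M909. The highest and the lowest of the 8 values both came from Rbfox2 KD mice, and the groups overlapped over most of their range. The group means were 147 CPM each and the log2 fold change was 0.00 to 2 decimals (SE 0.062, adjusted p = 0.9996 by edgeR), with a 95% interval from -0.14 to 0.14. The sign of this difference turned under 5 of the 18 alternatives, with values between -0.04 and 0.05.

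Scn9a encodes Nav1.7, best known from peripheral sensory neurons, and had the lowest level of the members per gene length (below), though not in CPM in every mouse. It had 6.77, 5.67, 7.12 and 6.90 CPM in control mice (M833, M894, M896, M898) and 7.84, 7.39, 6.85 and 7.54 CPM in M893, M901, M902 and M909. Of the Rbfox2 KD mice 3 were above every control, and M902 lay within the control range. The log2 fold change was 0.16 (SE 0.083, adjusted p = 0.426 by edgeR), and it was 0.10 without control M894. The annotation places exons of the antisense gene Gm13629 over exons of Scn9a, and since strand use in counting is not stated, reads of the 2 genes may not be separated.

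Scn2b encodes the beta-2 subunit, which is linked to the alpha subunit by a disulfide bond. It had 85.6, 91.9, 98.4 and 95.8 CPM in control mice (M833, M894, M896, M898) and 89.6, 94.7, 84.9 and 75.7 CPM in M893, M901, M902 and M909. M909 and M902 were the lowest of the 8 mice, while M893 and M901 lay within the control range. The log2 fold change was -0.11 (SE 0.068, adjusted p = 0.530 by edgeR), and it was -0.05 without M909, -0.15 without M833 and -0.16 without M901.

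Scn3b encodes the beta-3 subunit, which binds the alpha subunit without a covalent bond. It had 29.0, 33.9, 35.2 and 32.4 CPM in control mice (M833, M894, M896, M898) and 37.4, 38.6, 33.4 and 28.6 CPM in M893, M901, M902 and M909. The Rbfox2 KD mice held both the highest and the lowest value. The log2 fold change was 0.08 (SE 0.094, adjusted p = 0.750 by edgeR). It depended on single mice, with 0.03 without M833, 0.02 without M901, 0.04 without M893 and 0.16 without M909.

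Scn4b encodes the beta-4 subunit, which is disulfide-linked to the alpha subunit and is known for its part in resurgent sodium current. It had 5.52, 11.7, 12.1 and 11.6 CPM in control mice (M833, M894, M896, M898) and 8.53, 8.26, 6.81 and 6.02 CPM in M893, M901, M902 and M909. M833 was the lowest of all 8 mice, and the other 3 controls were above all 4 Rbfox2 KD mice. The log2 fold change of -0.47 was the largest of the members but had the largest SE, 0.225 (unadjusted p = 0.0651, adjusted p = 0.404 by edgeR), with a 95% interval from -0.97 to 0.04. Without M833 it was -0.68 (SE 0.115, unadjusted p = 0.000233, adjusted p = 0.0644 by edgeR).

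**Figure D2:**
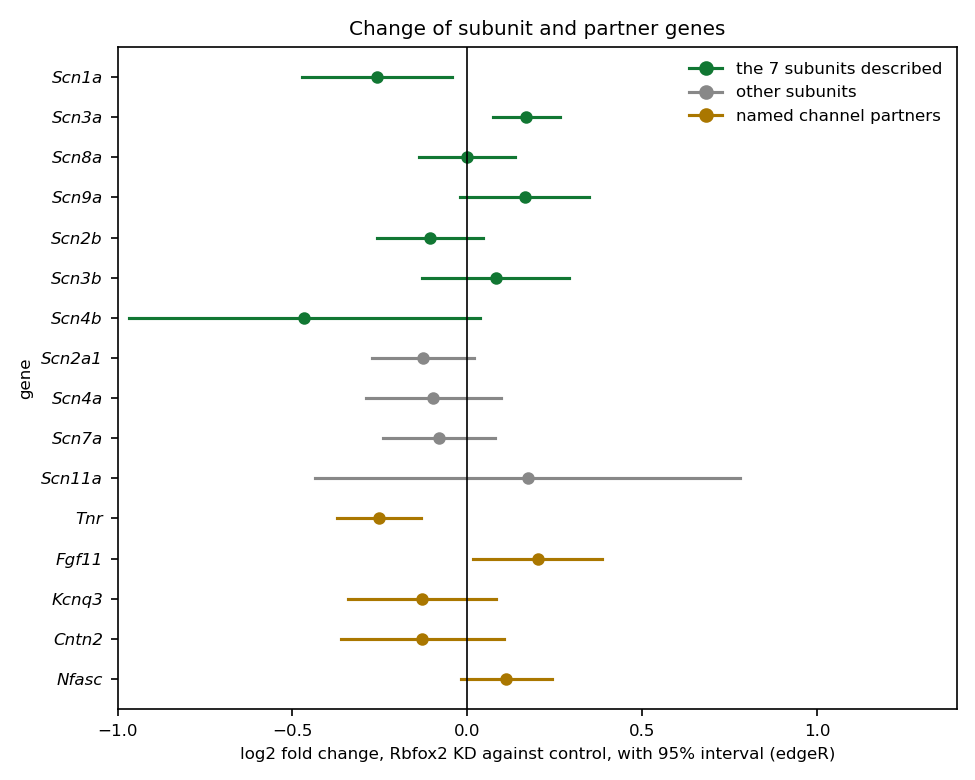
Log2 fold change of Rbfox2 KD against control retinas (x axis) for each gene (y axis), with the 95% interval of edgeR's quasi-likelihood fit as a line: green the 7 subunits, grey the other subunits, brown the named channel partners. The intervals of Scn1a, Scn3a, Tnr and Fgf11 leave out 0, and none of the genes drawn had an FDR under 0.05.

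The members were set beside the ganglion cell markers of each mouse, a comparison chosen after the values of M833 had been seen. Within the Rbfox2 KD group, the summed markers ran from M901 (1322 CPM) through M893 and M902 to M909 (996 CPM), and Scn4b ran from 8.26 and 8.53 CPM in M901 and M893 to 6.81 and 6.02 CPM in M902 and M909. Expressed per marker level, Scn4b was 0.686, 0.942, 0.949 and 0.894% of the marker sum in control mice (M833, M894, M896, M898), and 0.674, 0.625, 0.589 and 0.605% in M893, M901, M902 and M909. All 4 Rbfox2 KD mice were then below all 4 controls, M833 included, although M833 lay only just above M893. Scn1a was 9.45, 7.85, 8.22 and 7.60% of the marker sum in controls in the same order and 6.63, 6.45, 6.48 and 7.13% in Rbfox2 KD mice, again without overlap. The low marker sum of M833 raises every gene of that mouse on this scale. For Scn1a it moved M833 from the lowest control in CPM to the highest of the 8 mice. The separation therefore depends on a scale chosen after M833 was seen. On this scale the groups of 1.17% of all genes tested did not overlap. The groups of the other 5 members overlapped on this scale, with Scn3a at 2.14 to 3.22% in controls and 2.42 to 3.02% in Rbfox2 KD mice and Scn8a at 10.5 to 18.3% and 10.3 to 16.0%.

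A fit with the log2 marker sum of each mouse as a covariate was added after M833 had been seen to be low, so that it is an alternative and not the planned comparison. For the covariate the marker sum was scaled to the library total without TMM, unlike the sums given above. The low marker sum of M833 weighs in this fit too. In that fit 0.137% of the 16797 genes had an FDR under 0.05 by edgeR, and 2 of the 7 members were among them. Scn1a had a log2 fold change of -0.28 (SE 0.034, adjusted p = 0.0267 by edgeR) and Scn4b one of -0.47 (SE 0.061, adjusted p = 0.0305 by edgeR), both close to the values without the covariate and with smaller SE. Scn3a had 0.16 (SE 0.035, adjusted p = 0.116 by edgeR), Scn2b -0.12 (SE 0.046, adjusted p = 0.267 by edgeR) and Scn8a 0.00 (SE 0.061, adjusted p = 0.985 by edgeR). An unadjusted p under 0.01 was found for 3 of 7 members (Scn1a, Scn3a and Scn4b) and for 4.88% of all genes in that fit. Without M833 and with no covariate, 5.83% of the genes tested had an unadjusted p under 0.01, and 3 members, Scn1a, Scn3a and Scn4b, were among them, none with an FDR under 0.05.

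**Figure D3:**
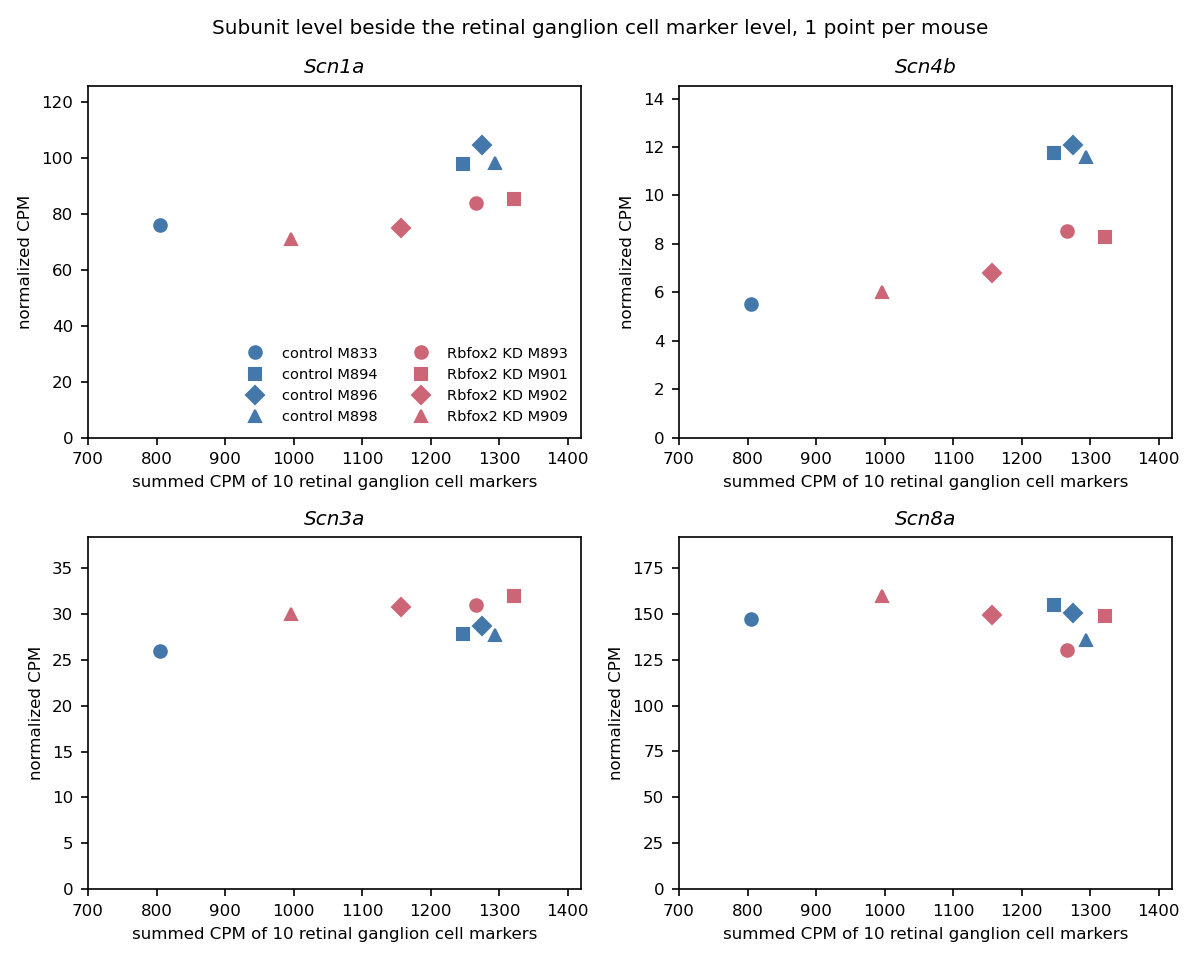
Normalized CPM of Scn1a, Scn4b, Scn3a and Scn8a (y axes, from 0) against the summed CPM of 10 retinal ganglion cell markers (x axis, which does not start at 0), 1 symbol per mouse, blue control and red Rbfox2 KD. Control M833 sits at 805 CPM on the x axis, and the 3 other controls lie above the Rbfox2 KD mice of like marker level for Scn1a and Scn4b and below them for Scn3a.

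**Figure D4:**
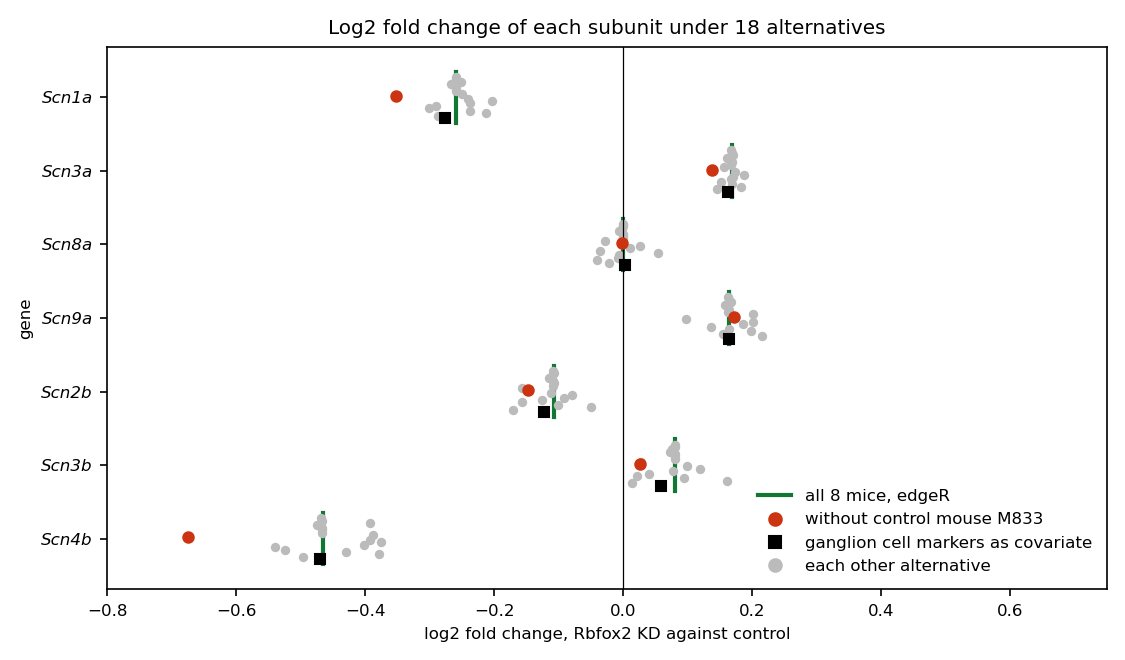
Log2 fold change of each of the 7 subunits (x axis) under 18 alternatives of test, normalization, filter, covariate or mice used (points), with the value from all 8 mice as a green bar. Scn4b and Scn1a move farthest to the left without control M833 (red), to -0.68 and -0.35, and the Scn8a points lie on both sides of 0.

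Levels can be compared between genes only per length, and the deposited FPKM values (counts scaled to the library total and to the length of the gene model) serve this. Among the members in control retinas Scn2b had 20.5 ± 1.46 FPKM (SD, n = 4), Scn8a 13.1 ± 0.717, Scn1a 11.5 ± 1.65, Scn3b 7.91 ± 0.727, Scn3a 2.90 ± 0.157, Scn4b 2.43 ± 0.769 and Scn9a 0.675 ± 0.0656. Scn8a and Scn1a overlapped between mice, as did Scn3a and Scn4b, and the other neighbours in this order did not. In Rbfox2 KD retinas the order was the same, with Scn8a at 12.9 ± 0.989 FPKM (SD, n = 4), Scn1a at 9.46 ± 0.863, Scn3a at 3.22 ± 0.0806 and Scn4b at 1.74 ± 0.287, and there the ranges of Scn8a and Scn1a, and those of Scn3a and Scn4b, no longer overlapped, while those of Scn1a and Scn3b (8.26 ± 1.11 FPKM) did.

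Shares were taken of the summed FPKM of 8 alpha genes (the 4 members, Scn2a1, Scn4a, Scn7a and Scn11a) and of the 3 beta members. The alpha sum was 42.3 ± 2.93 (SD, n = 4) in controls and 39.4 ± 1.31 (SD, n = 4) in Rbfox2 KD retinas, and the beta sum 30.8 ± 2.88 and 28.8 ± 3.15, with overlap in both. Scn8a made up 30.9 ± 2.08% of the alpha sum in controls and 32.8 ± 2.29% in Rbfox2 KD retinas, and Scn1a 27.0 ± 2.27% and 24.0 ± 2.17% (SD, n = 4 each), with overlap. The share of Scn3a was 7.01, 6.72, 6.78 and 6.94% in control mice (M833, M894, M896, M898) and 8.47, 8.07, 8.37 and 7.83% in M893, M901, M902 and M909, with no overlap. Scn9a made up 1.33 to 1.78% in controls and 1.81 to 2.08% in Rbfox2 KD retinas, also with no overlap. Of the beta sum, Scn3b made up 24.8 to 26.3% in controls and 27.6 to 29.4% in Rbfox2 KD retinas, with no overlap, while the shares of Scn2b and Scn4b overlapped. Set against the same sums, the FPKM of the groups did not overlap for 5.5% (alpha sum) and 2.21% (beta sum) of all genes tested. The mean of both sums was lower in Rbfox2 KD retinas, which raises every share, and in CPM the groups of Scn9a and Scn3b overlapped.

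As Scn1a and Scn3a lay on opposite sides of 0, their ratio was computed after their values had been seen, as a description. The FPKM ratio of Scn1a to Scn3a was 3.39, 4.05, 4.22 and 4.10 in control mice (M833, M894, M896, M898) and 3.13, 3.08, 2.81 and 2.73 in M893, M901, M902 and M909. All Rbfox2 KD mice were below all controls, and M833 was the control closest to them. The groups of Scn3a alone already did not overlap, and the 2 genes varied together within groups (r = 0.96), which narrows the spread of their ratio. How often ratios of other genes separate the groups was not computed, so that the separation adds no support. Scn1a and Scn3a lie in the sodium channel gene cluster of chromosome 2, with Scn2a1 between them. By position the cluster holds Scn3a (65457118 to 65567627), Scn2a1 (65620771 to 65767447), Scn1a (66270778 to 66440840), Scn9a (66480080 to 66634962) and Scn7a (66673425 to 66784914). The 5 log2 fold changes in that order were 0.17, -0.13, -0.26, 0.16 and -0.08. Scn2b (45117782 to 45130070) and Scn4b (45138395 to 45154152) lie side by side on chromosome 9, with log2 fold changes of -0.11 and -0.47, and Scn3b (40269217 to 40291618) lies on the same chromosome.

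**Figure D5:**
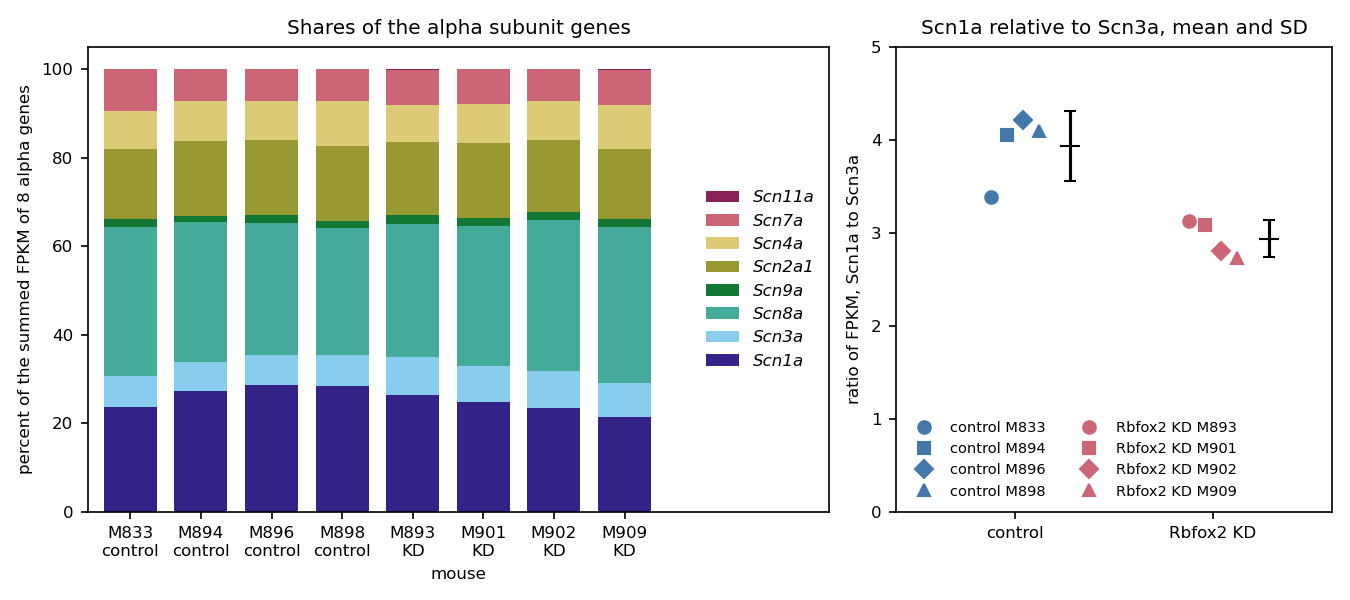
Left, share of each of 8 alpha subunit genes in their summed FPKM (y axis, percent) in each mouse (x axis). Right, ratio of the FPKM of Scn1a to that of Scn3a in each mouse, with mean and SD of 4 mice per group, where the Rbfox2 KD mice lie between 2.73 and 3.13 and the controls between 3.39 and 4.22.

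Across the 8 mice, after each group's mean was subtracted from log2 CPM, 5 members varied together. Pearson's r was 0.97 for Scn1a and Scn4b, 0.96 for Scn1a and Scn3a, 0.96 for Scn2b and Scn3b, and at least 0.75 for every pair of these 5 genes, and M833, the lowest control for all 5, weighs in each value. Scn8a had r between -0.47 and -0.08 with the other 6, and Scn9a r between -0.46 and 0.15. Among 13756 genes with a mean of at least 1 CPM, those closest to Scn1a were Stmn2, Cacnb3 and Mfsd6, each with r = 0.99, and those closest to Scn4b were Irx4, Rgs4 and Cplx1, each with r = 0.996. The closest to Scn3a was Bend6 (r = 0.98), and the closest to Scn2b were Fam217b, Cfl1 and Pitpna (r from 0.993 to 0.995), and to Scn3b they were Rph3a, Ttbk1 and Arhgap44 (r from 0.990 to 0.997). Scn8a had Npc1l1, Sec61a2 and Nrip1 (r from 0.97 to 0.98) and Scn9a had Pigk, Atad1 and Gm6981 (r from 0.94 to 0.96). With 8 mice and this many genes, high values of r are found for any gene, and they are a description only.

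The 4 further subunit genes were tested in the same fit, and none of the 4 had an unadjusted p under 0.05 by edgeR. Scn2a1, the symbol used in the table for the gene of Nav1.2, a channel of immature and unmyelinated axons, had a log2 fold change of -0.13 (SE 0.065) and lay at 53.9 to 65.8 CPM in controls and 54.1 to 60.9 CPM in Rbfox2 KD mice. Without M833 it was -0.19 (adjusted p = 0.145 by edgeR). The muscle channel Scn4a had -0.10 (-0.16 without M833 and -0.16 without M909), and Scn7a, which encodes a sodium-sensing channel relative of glia and other cells, had -0.08 (-0.02 without M833). Scn11a had 19 to 48 counts per mouse and a log2 fold change of 0.17 (SE 0.272), which was -0.07 without M909.

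A list of 28 genes whose proteins anchor sodium channels, bind them or share their membrane domains (ankyrins, spectrin, neurofascin, contactins, intracellular FGFs, ubiquitin ligases, Kcnq and Kcna potassium channels and tenascins among them) was all in the table. None of the 28 had an FDR under 0.05, 1 was lower and 0 were higher at an unadjusted p under 0.01, 2 had an unadjusted p under 0.05, and the median log2 fold change was -0.01 against 0.00 over all genes tested. Tnr, which encodes tenascin-R, an extracellular matrix protein that binds beta subunits, had 101, 91.7, 94.3 and 97.5 CPM in control mice (M833, M894, M896, M898) and 80.5, 82.3, 73.2 and 87.0 CPM in M893, M901, M902 and M909. The groups did not overlap, and M833 was the highest. Its log2 fold change was -0.25 (SE 0.054, unadjusted p = 0.000822, adjusted p = 0.130 by edgeR). The summed Müller glia markers were lower in the same mice, though only 3 of the 5 markers were lower (above), and their part in the level of Tnr was not tested. Fgf11, an intracellular FGF that binds alpha subunits, had 0.20 (SE 0.083, adjusted p = 0.351 by edgeR), Nfasc, which encodes neurofascin, 0.11, and Kcnq3 and Cntn2, a potassium channel subunit and contactin-2, -0.13 each. Without M833 Cntn2 had -0.23 (adjusted p = 0.182 by edgeR), and without M901 Kcnq3 had -0.20 (adjusted p = 0.564 by edgeR). The other 23 partners lay closer to 0.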

How the data were processed

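The members and gene lists were chosen with earlier results of these data known. Retinal poly(A) RNA of 8 mice was sequenced as paired reads. The authors aligned reads to mm10 with STAR, kept uniquely mapped reads, and deposited gene counts made with HTSeq, without normalization, in 1 table. Both RefSeq and Ensembl models are named for counting, and strand use is not given in the sources used here. The submitters' processing notes name CASAVA 1.8.2 and edgeR. The deposited FPKM values divide these counts by the total and by 1 fixed gene length. The table holds only genes that reach 5 counts in 4 or more mice. It also holds 16 further per-mouse columns (adjusted signal and log ratios) that were not used, and the authors' fold changes and p-values, which were not used either.

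Counts were filtered with filterByExpr (16797 genes kept), normalized by TMM and tested in edgeR 4.0.16 (R 4.3.3) with the quasi-likelihood test, all 8 mice, no covariate and Benjamini-Hochberg adjustment over all genes tested. The procedure was tested on simulated data. CPM are counts scaled to the TMM-normalized library size, and 3 counts equal 0.0144 to 0.0189 CPM, which covers counting error only. The alternatives tried were a DESeq2 1.42.0 Wald test, the likelihood ratio test of edgeR, limma-voom (limma 3.58.1), upper-quartile and DESeq2 size factors, no filter, at least 10 counts in every mouse, each mouse left out, M901 and M902 left out, 1 surrogate variable (sva 3.50.0) and, added after the data were seen, the marker covariate. Libraries of different mice differed by more than sampling noise (chi-square per degree of freedom 31.5 to 129). Genes named are the 7 members, the Rbfox genes, the other subunits of the list, partners with an unadjusted p under 0.01 and the 4 with the largest change among the rest, and for each member the 3 genes of highest r over at least 1 CPM. Some items that these rules name are not reported here. Gm13629 was named after values were seen, for its overlap. Positions and sequences were read from GENCODE release M21 (GRCm38, which is the mm10 assembly).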

Additional observations from a re-analysis of the deposited data

Results flagged for a closer look

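In 2 of 24 groups of 4 mice, 1 mouse lay far from the other 3 by Dixon's test at 95%, where chance gives about 1.2. Scn4b in control M833 had 5.52 CPM against 11.6 to 12.1 CPM in the other controls. The summed retinal ganglion cell markers of M833 were low as well, at 805 CPM against 1247 to 1294 CPM, and the part of these markers in this value was not tested within the control group. Scn2a1 in Rbfox2 KD mouse M901 had 60.9 CPM against 54.1 to 54.8 CPM in the other 3 KD mice, and M901 is 1 of the 2 libraries that stood apart on Xist.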

How the results depend on the processing

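No paired analysis was possible because the labels give the mice no shared replicate numbers. Of 126 log2 fold changes of the 7 members under 18 alternatives, 121 kept their sign. The other 5 were Scn8a values that turned positive, at 0.000244 without the filter, 0.00328 with the marker covariate and with M894, M896 or M893 left out, where its range over all 8 mice left out was -0.0412 to 0.0537. Scn11a ran from -0.0681 to 0.305 with 1 mouse left out. Of the 7 members, 1 had an FDR under 0.05 by DESeq2 and 2 with the marker covariate, and 0 under the other alternatives. The number with an unadjusted p under 0.01 was 2 by DESeq2, 3 with the covariate, 0 with 1 surrogate variable, 0 without M901 and M902, and 0 to 3 with 1 mouse left out (3 without M833, 0 without M901). Of 28 partners 1, Tnr, had an FDR under 0.05 by DESeq2 and 1 by the likelihood ratio test (adjusted p = 0.0026 and 0.0206), and 2 had an unadjusted p under 0.01 with the covariate and 1 to 2 with 1 mouse left out. Over all genes, 465 had an FDR under 0.05 by DESeq2, 164 by the likelihood ratio test, 23 with the covariate, 5 with 1 surrogate variable, 1 without M901 and M902, and 5 to 35 with 1 mouse left out. With an unadjusted p under 0.01 there were 1073 by DESeq2, 820 with the covariate, 290 with 1 surrogate variable, 253 without M901 and M902, and 354 to 995 with 1 mouse left out. Per coding length in place of the authors' gene length, Scn8a made up 37.7% of the alpha sum in controls, Scn1a 23.8% and Scn3a 7.19%, and Scn2b 68.8% and Scn3b 24.1% of the beta sum. The cause of these changes was not tested. Gene totals cannot show exon use.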
